A study of Mus musculus with 2 samples.

Results

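Interferon-induced genes were followed here in mouse embryonic stem cells that carry a short hairpin RNA. The members are Ifitm1, Ifitm2 and Ifitm3 of the interferon-induced transmembrane family, Bst2 and 5 classic interferon-induced genes: Isg15, Ifit1, Irf7, Eif2ak2 and Oas1a. They were listed by name and looked up in the array's probe annotation, keeping only probe sets assigned to a single gene. Of the 9 genes 8 had such a probe set, giving 9 probe sets among the 20380 single-gene probe sets of 12393 genes. Isg15 was named only on a probe set shared with the pseudogene Gm9706, so no value is given for it.

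Both clones derive from E14tg2a, a mouse embryonic stem cell line, and each is a single clone. The shDAB2 clone (clone 4 of shDAB2-285) was stably transfected with a plasmid for a hairpin against Dab2, an endocytic adaptor gene, and the vector clone (clone 9, ES-V9) with the control plasmid. They grew alike, in GMEM that held 10% serum and leukaemia inhibitory factor (LIF) at 1000 U/ml, and total RNA of each was hybridised to 1 Affymetrix mouse 430A array. With 1 array per group there is no test, no standard deviation and no p-value. Every value below is a single measurement, and hairpin, Dab2 targeting and clone cannot be told apart. The promoter that drives the hairpin is not given in the sources used here.

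Type I interferon is secreted when cells sense foreign nucleic acid, and it acts through a cell surface receptor, JAK kinases and STAT proteins. Activated complexes then bind a response element, the ISRE, before genes such as Isg15, Ifit1 and Oas1a. Long double-stranded RNA, and some short hairpins, can start this programme or activate PKR, the kinase encoded by Eif2ak2, which blocks translation. Pluripotent stem cells are known to respond weakly to interferon. The Ifitm proteins block virus entry at membranes, and in mouse Ifitm1 and Ifitm3 are also known as genes of early germ cells. The array answers a narrow question: whether transcripts of this programme differed between the hairpin clone and the vector clone.

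The promoters are shown first so that the response element, which most of the members share, can be set beside their values. RefSeq windows of 300 bases (250 before to 50 after a start site, GRCm38.p6) were at hand for 9 of 9 genes. They were searched on both strands for the ISRE core, which is GAAA 2 times with 2 bases of any kind between, and for the gamma-activated site TTCNNNGAA, a second element of interferon-induced genes. Overlapping matches were counted separately. Capitals mark the ISRE core in the sequences, each written 5′ to 3′ along the gene's strand. The Ifitm windows and that of Bst2 are given whole, Ifitm1 at chr7:140967826-140968125 on the plus strand, Ifitm2 at chr7:140955912-140956211, Ifitm3 at chr7:141010695-141010994 and Bst2 at chr8:71537423-71537722, the last 3 on the minus strand.
Ifitm1: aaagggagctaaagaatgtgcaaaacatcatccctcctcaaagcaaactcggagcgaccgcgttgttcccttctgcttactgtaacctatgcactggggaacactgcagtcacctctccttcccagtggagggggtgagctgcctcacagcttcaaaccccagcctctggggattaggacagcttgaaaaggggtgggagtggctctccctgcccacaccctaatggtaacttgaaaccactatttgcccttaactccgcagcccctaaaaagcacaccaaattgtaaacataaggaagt
Ifitm2: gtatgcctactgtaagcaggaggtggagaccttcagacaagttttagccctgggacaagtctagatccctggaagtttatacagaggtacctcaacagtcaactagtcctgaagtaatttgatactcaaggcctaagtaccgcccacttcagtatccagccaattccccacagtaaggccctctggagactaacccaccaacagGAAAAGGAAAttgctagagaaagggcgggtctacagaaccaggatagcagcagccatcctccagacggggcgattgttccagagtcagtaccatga
Ifitm3: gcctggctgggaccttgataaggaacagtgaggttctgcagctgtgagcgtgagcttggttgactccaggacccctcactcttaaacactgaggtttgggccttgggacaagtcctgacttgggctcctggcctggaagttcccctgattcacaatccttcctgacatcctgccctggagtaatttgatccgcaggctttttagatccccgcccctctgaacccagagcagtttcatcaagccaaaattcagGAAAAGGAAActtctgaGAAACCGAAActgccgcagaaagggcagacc
Bst2: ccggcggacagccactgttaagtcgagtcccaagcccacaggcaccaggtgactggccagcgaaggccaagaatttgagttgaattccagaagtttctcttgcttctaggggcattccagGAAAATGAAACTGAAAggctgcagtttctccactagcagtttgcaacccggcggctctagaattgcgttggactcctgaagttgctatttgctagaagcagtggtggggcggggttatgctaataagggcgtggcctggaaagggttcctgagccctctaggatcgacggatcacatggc

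For the antiviral genes a stretch with 20 bases on each side of the matches shows the same element. Ifit1 lies at chr19:34640765-34640833 on the plus strand, where the match reads on the opposite strand. Eif2ak2 at chr17:78882525-78882574 and Oas1a at chr5:120907510-120907565 lie on the minus strand.
Ifit1: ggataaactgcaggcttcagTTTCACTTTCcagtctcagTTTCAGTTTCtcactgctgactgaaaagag
Eif2ak2: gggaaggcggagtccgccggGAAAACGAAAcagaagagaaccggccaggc
Oas1a: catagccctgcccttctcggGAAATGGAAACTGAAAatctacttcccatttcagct

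An ISRE core stood in 7 of the 9 member windows, or 77.8%, against 1131 of 32851 windows over all genes, or 3.44%. The members were listed as interferon-induced genes, so an excess over all genes follows in part from that choice. Of the windows of antiviral effector genes, listed below and including some members, 21 of 56 held a core, or 37.5%. Isg15 had 3 overlapping matches, Bst2 and Oas1a 2 overlapping matches each, Ifitm3 and Ifit1 2 separate matches each, and Ifitm2 and Eif2ak2 1 each. The windows of Ifitm1 and Irf7 held none. In Ifitm3 the matches lay just after the start, at positions 3 to 12 and 20 to 29, as did that of Eif2ak2 at 19 to 28, while those of the other 5 genes lay before it. A gamma-activated site stood in the windows of Ifitm3, Bst2, Eif2ak2 and Oas1a, against 8.3% of all windows. In Ifitm3 and Bst2 it overlapped an ISRE core by a few bases. The start sites used for Ifitm1 and Ifitm2 lie 647 and 3725 bases inside the RefSeq span of the gene, and those for Irf7 and Oas1a 75 and 19 bases inside it, so further start sites of these 4 genes were not searched. A match describes letters in a window, not a bound site.

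**Figure D1:**
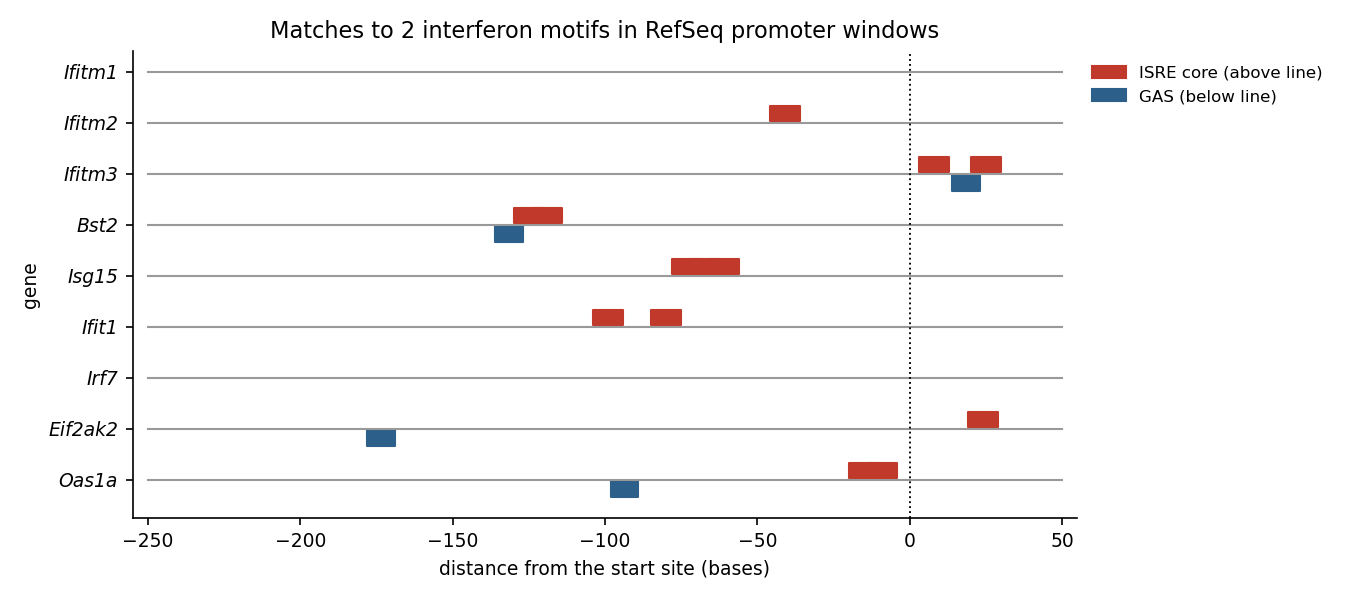
Positions of ISRE core matches (red, above each line) and gamma-activated site matches (blue, below) in the 300-base promoter window of each member, as distance in bases from the start site (dotted line). Windows of 7 of the 9 genes hold an ISRE core, and those of Ifitm1 and Irf7 hold neither motif.

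The values are log2 expression values that the authors made with RMA, in which background is removed, arrays are brought to one distribution and each probe set is reduced to a single value. The median over all probe sets and both arrays, 6.62, served as a floor, and a gene counted as above it when either value was at least that high. Ifitm1, Ifitm2, Ifitm3, Bst2 and Oas1a lay above it, and Ifit1, Irf7 and Eif2ak2 below. A difference is the shDAB2 value minus the vector value, and 1.5-fold (0.585 on the log2 scale) is the size named here as a difference. RMA shrinks differences of dim probe sets, so for the genes below the floor the folds are understated. As a guide to scatter, single-gene probe sets were split by mean signal into 4 bins of equal number, in which the SD of the differences was 0.07, 0.09, 0.16 and 0.26 from dimmest to brightest. For the 2502 genes with at least 2 probe sets above the floor, the SD for 1 probe set was 0.11, which covers probe noise and transcript variants but not cultures or clones.

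The Dab2 value, the check of the labels, came from a dim gene. On the brightest set it read 6.33 with the hairpin against 6.64 without, a difference of -0.31, and the others differed by -0.05 and -0.01. The stem cell label was met: 10 of 10 pluripotency markers lay above the floor on both arrays, among them Dppa5a (12.29 and 12.37), Zfp42 (10.03 and 9.85) and Pou5f1 (9.93 and 9.83; shDAB2 before vector, as in all pairs below). Of the fibroblast markers, for the usual feeder cells, 8 of 10 were below the floor. Acta2, the smooth muscle actin gene, was well above it (8.36 and 8.49), Dcn, the decorin gene, lay at it (6.62 and 6.55), and the collagen gene Col1a1 read 6.47 and 6.58. For macrophages and other blood cells 8 of 9 measured markers were below the floor. Cd68 read 6.84 and 6.94, Csf1r 6.59 and 6.59, and Cd3e 6.54 and 6.59. Summed over the list, fibroblast markers gave 65.5 and 65.8 on the log2 scale and blood markers 57.4 and 57.2.

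Of the 5 members above the floor, Ifitm3 alone was higher in the shDAB2 clone by 1.5-fold or more, and 0 were lower by that much. Over all 7269 genes above the floor, 0.578% passed the limit as higher and 1.62% as lower. With 5 genes, a single gene past the limit is a description of that gene and says little about the group. The median difference of the 5 was 0.08, against 0.0006 over all genes above the floor.

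**Figure D2:**
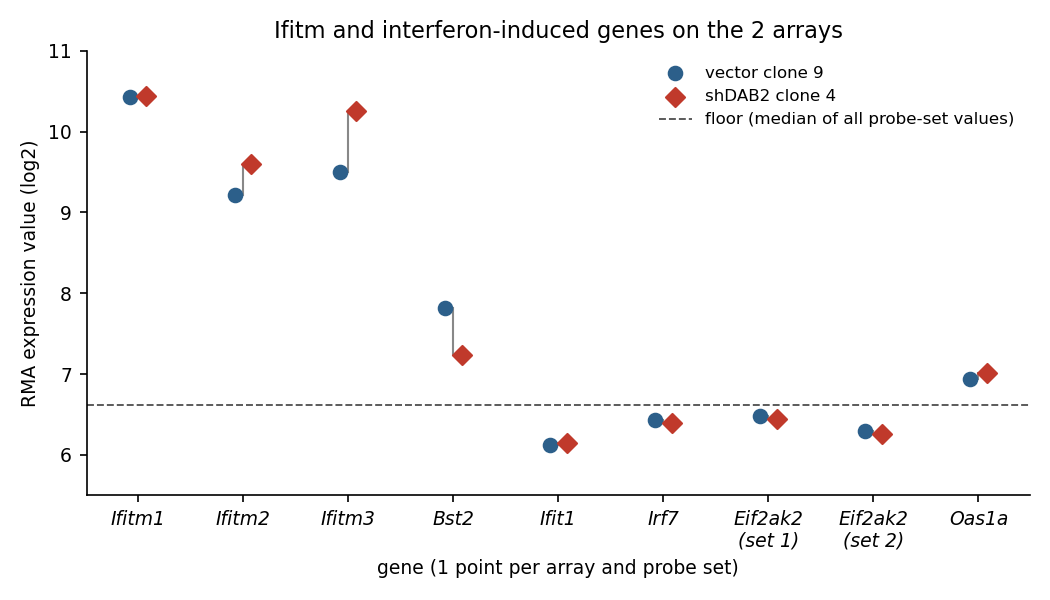
RMA expression values (log2) of every single-gene probe set of the members, with the vector clone as blue circles, the shDAB2 clone as red diamonds and the floor as a dashed line. Ifitm3 and Ifitm2 sit higher and Bst2 lower in the shDAB2 clone, while the points of the other genes nearly coincide.

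Ifitm3, which restricts enveloped viruses at endosomes, read 10.26 with the hairpin and 9.50 with the vector. The difference of 0.76, or 1.69-fold higher, was the 12th highest of 7269 genes above the floor. Only 0.402% of single-gene probe sets differed by more in either direction. Ifitm2, its close relative, read 9.60 and 9.22, a difference of 0.38 or 1.30-fold. That was rank 220 from the top and short of the 1.5-fold limit, and 3.70% of probe sets differed by more. Ifitm1, whose human counterpart acts mainly at the cell surface, read 10.44 and 10.42. Its difference of 0.02 was exceeded by 83.2% of probe sets. The 3 genes are well above the floor on both arrays, each with a mean signal above that of at least 96.2% of probe sets, but only 1 of them passed the limit. All 3 fall in the brightest bin of signal, where the SD of the differences was 0.26 against 0.07 in the dimmest. Shares over probe sets of every signal level therefore make Ifitm3 and Ifitm2 look rarer than they are among bright ones. Each rests on a single probe set. Ifitm2 and Ifitm3 are closely related in sequence, and whether their probes also catch the transcripts of the other was not tested.

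The rest of the Ifitm family added nothing above the floor. Ifitm6, the next gene after Ifitm3 on the chromosome, read 6.22 and 6.14, and Ifitm10 read 6.32 and 6.31. Ifitm5 and Ifitm7 have no single-gene probe set in the annotation used here.

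The genes around the Ifitm cluster stayed within 1.5-fold. RefSeq gene order on chromosome 7 places Ifitm2, Ifitm1 and Ifitm3 next to each other among the measured genes. Of the 10 measured genes on each side, 11 of 20 were above the floor and 0 were past 1.5-fold in either direction. Over all genes above the floor 0.578% passed as higher and 1.62% as lower. With so few genes and shares this small, 0 past the limit says little about the region. Their differences ran from -0.38 to 0.28 with a median of -0.03, 8 being higher and 12 lower. The ends of that range, named after their values were seen, were Rnh1, a ribonuclease inhibitor gene (8.19 and 8.57), and Psmd13, a proteasome subunit gene (8.90 and 8.62). Irf7 is one of the neighbours. Ifitm1 lies between the other 2 Ifitm genes and had the smallest difference of the 3.

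**Figure D3:**
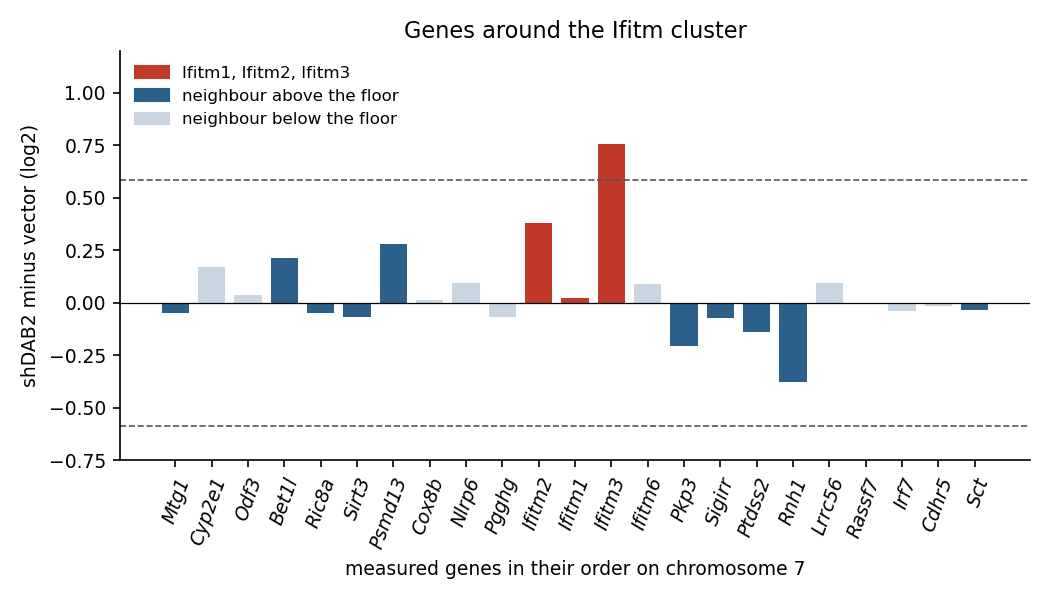
Difference between the clones (shDAB2 minus vector, log2) for Ifitm2, Ifitm1 and Ifitm3 (red) and the 10 measured genes on each side in their order on chromosome 7, dark blue above and pale blue below the floor. Only Ifitm3 passes the dashed line at 1.5-fold, and the neighbours range from -0.38 to 0.28.

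Bst2 went the other way. It encodes tetherin, which holds budding virus particles at the cell surface. The probe set read 7.24 against 7.82 in the vector clone, a difference of -0.58 or 1.496-fold lower, just inside the 1.5-fold limit. It was rank 120 from the bottom of 7269 genes, and 1.09% of probe sets of every signal level differed by more. Bst2 too lies in the brightest bin, with its SD of 0.26. Ifitm3 and Bst2 both carry ISRE cores in the windows printed above and differed in opposite directions, each on 1 probe set. Whether the element has a part in either difference was not tested.

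Oas1a, an oligoadenylate synthetase that makes the signal for RNA cleavage by RNase L, read 7.02 and 6.94. The difference of 0.08 was exceeded by 44.3% of probe sets and is below the SD of 0.16 for its bin of signal. Ifit1, whose protein binds RNA with foreign 5′ ends, read 6.14 and 6.12, with a mean signal above only 12.4% of probe sets. Irf7, the factor that amplifies the interferon response, read 6.39 and 6.43. These genes are the usual sentinels of the response, and on neither array did Ifit1 or Irf7 reach the floor.

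Eif2ak2, the gene of the double-stranded RNA kinase PKR, is itself induced by interferon. It is the only member with a repeat probe set. The first read 6.45 and 6.48 and the second 6.26 and 6.30, differences of -0.03 and -0.04. Both probe sets were below the floor on both arrays. The array measures the transcript and not kinase activity, and at this signal a modest change of Eif2ak2, Ifit1 or Irf7 was not detectable.

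**Figure D4:**
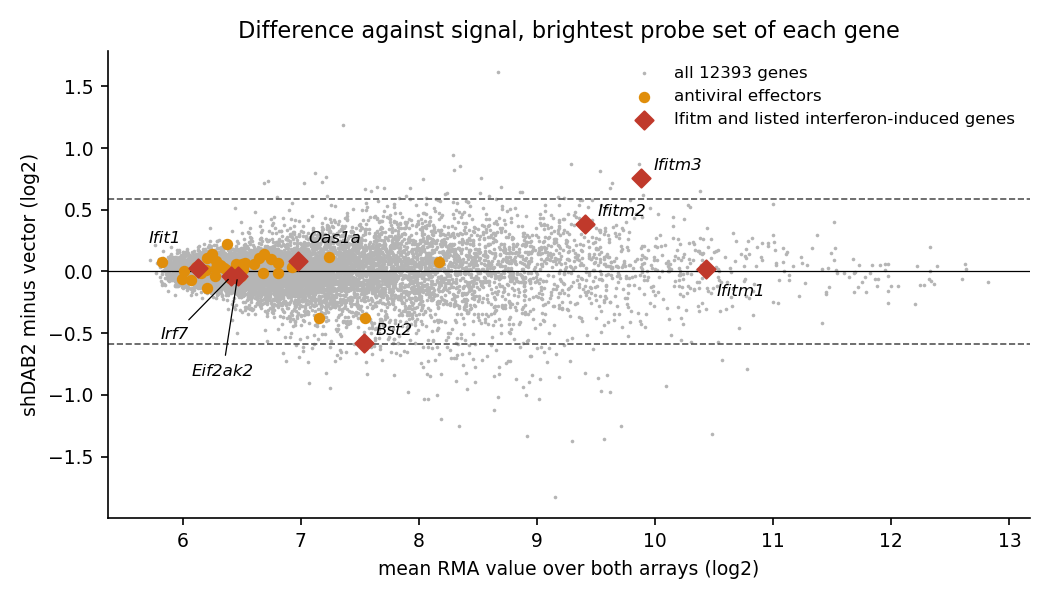
Difference between the clones (shDAB2 minus vector, log2) against mean RMA value (log2) for the brightest probe set of all 12393 genes (grey), the antiviral effector genes (orange) and the members (red, named), with dashed lines at 1.5-fold. Ifitm3 stands above the upper line at high signal, Bst2 lies just inside the lower line, and most effectors cluster near 0 at low signal.

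The wider programme was read from gene lists ordered by role. Interferon genes themselves gave no signal above the floor: 9 of 9 measured ligand genes stayed below it, with values from 6.01 to 6.44 and differences from -0.04 to 0.14. Ifnb1, the interferon first made after RNA sensing, read 6.30 and 6.32, and Ifng read 6.16 and 6.01.

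Receptor and signalling genes stayed within 1.5-fold. Of 16 measured genes 11 were above the floor, 6 higher and 5 lower, with a median of 0.01. Over all genes above the floor only 0.578% passed 1.5-fold as higher and 1.62% as lower. None past it among 11 genes therefore says little about the group. The receptor subunit genes Ifnar1 (7.02 and 6.99) and Ifnar2 (6.66 and 6.70) differed by 0.04 and -0.04. The kinase gene Jak1 read 7.19 and 7.40, a difference of -0.20 against -0.21 on its second probe set and -0.04 on its last, which was below the floor. Tyk2, the partner kinase, read 6.99 and 6.96. Socs3, a feedback inhibitor that LIF signalling also induces, differed by 0.11 on its brightest set but by -0.04 and -0.10 on the others. The transcription factor genes Stat2 (6.56 and 6.57) and Irf9 (6.38 and 6.34) were below the floor.

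Among the interferon regulatory factors 2 of 8 measured genes passed the floor. Irf3, the factor that sensors activate directly, read 7.27 and 7.47 on its brightest set, a difference of -0.20, and its other sets ranged from -0.10 to 0.06. Irf1 read 7.67 and 7.71. The 6 below the floor differed by -0.04 to 0.05.

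Sensors of foreign nucleic acid were mostly dim as well, with 5 of 13 measured genes above the floor, 4 higher and 1 lower, and a median of 0.03. Trim25, a ubiquitin ligase that acts in the RIG-I pathway, led at 0.22 (8.71 and 8.49), and its other sets gave 0.16 and 0.08. Myd88 stood at 0.07, Mavs at -0.06 and Tbk1 at 0.03. Of the RNA sensors themselves, Ifih1, which encodes MDA5, read 6.31 and 6.23 and Tlr3 read 6.17 and 6.18, both below the floor. Tlr3 and Ifih1 were named after their values were seen.

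The antiviral effectors, the targets of the pathway, differed in both directions. Of 41 measured genes 14 were above the floor, 9 higher and 5 lower, with 0 past 1.5-fold in either direction beside the 0.578% and 1.62% of all genes. With 14 genes and shares this small, 0 past the limit says little about the group. The median of the 14 was 0.06, against 0.0006 over all genes above the floor, of which 3636 were higher and 3585 lower. With the floor at the 75th percentile of all values, which left 4 genes, it was -0.38. The 3 largest differences were negative: Bst2 at -0.58, Gbp2, an interferon-gamma-induced GTPase gene, at -0.38 (6.96 and 7.34), and Shisa5 at -0.37 (7.36 and 7.73). The second probe sets of Gbp2 and Shisa5 gave -0.33 and -0.40. The fourth by size was Tor1aip1 at 0.14. The other effectors above the floor lay between -0.01 and 0.12, and the 27 below it between -0.13 and 0.22.

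Strongly inducible genes were among the dim ones, here named after their values were seen. Mx1 read 6.01 and 6.01, Ifit3 6.34 and 6.28, Rsad2 6.47 and 6.48, and Usp18 6.14 and 6.27. In the oligoadenylate synthetase family Oas1e, Oas2 and Oas3 differed by 0.10, -0.01 and 0.22, with Oas3 (6.49 and 6.26) below the floor. Over the union of the 5 pathway lists, 84 genes were measured, and 81 of them were within 1.2-fold and 84 within 1.5-fold. Over all 12393 genes 11166 were within 1.2-fold and 12233 within 1.5-fold. The median absolute difference was 0.04 in the union and 0.07 over all genes, but only 32 of the 84 were above the floor, where it was 0.06 against 0.11. The sets were not matched on signal in either comparison. Over single-gene probe sets the median absolute difference rose with signal, from 0.05 in the dimmest bin to 0.15 in the brightest. A smaller value in the union therefore does not show that pathway genes differed less than other genes of like signal.

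**Figure D5:**
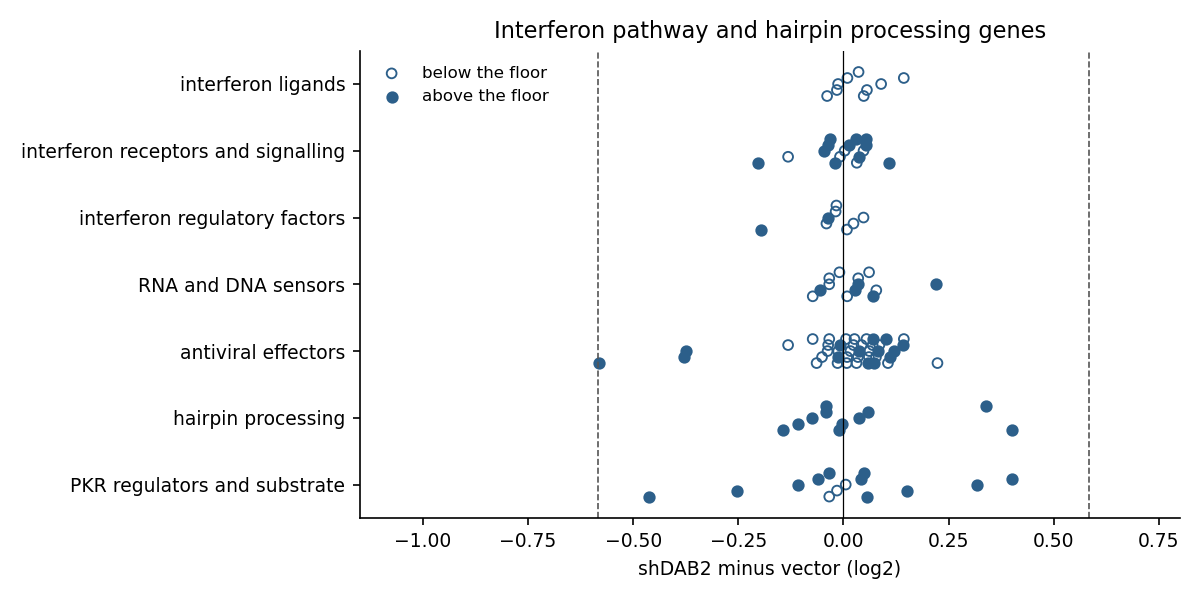
Difference between the clones (shDAB2 minus vector, log2) for each measured gene of 7 lists, filled above and open below the floor, with dashed lines at 1.5-fold. No gene passes a line. Over all genes above the floor 0.578% do so as higher and 1.62% as lower. Bst2, Gbp2 and Shisa5 form the low end of the antiviral effectors.

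Genes that act on a short hairpin were also compared. All 11 measured hairpin processing genes were above the floor, 4 higher and 7 lower, with a median of -0.01. Tarbp2, which encodes the TRBP partner of Dicer and an inhibitor of PKR, was highest at 0.40 (7.96 and 7.56), with 0.25 on its second probe set. Tsn, known from fly and human as a subunit of a nuclease that clears the passenger strand, stood at 0.34 (8.55 and 8.22), and its other sets gave 0.15 to 0.33. Xpo5, the nuclear exporter of hairpins, differed by -0.14, and Prkra, an activator of PKR, by -0.11. Dicer1, named after its values were seen, gave -0.07 on its brightest set and -0.30 on the other.

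Around PKR and eIF2, 11 of 14 measured genes were above the floor, 6 higher and 5 lower. The median was 0.04, and none passed 1.5-fold, beside 0.578% higher and 1.62% lower over all genes above the floor. With 11 genes and shares this small, that says little about the group. Eif2s1, the gene of the eIF2 subunit that PKR phosphorylates, was listed but had no single-gene probe set. Ppp1r15b, which directs the phosphatase to eIF2, stood at -0.46 (7.93 and 8.40), but at -0.07 on its second, dim set. Eif2ak1, a sister kinase of PKR that senses haem, stood at 0.32 and 0.31 on its brighter probe sets and at -0.03 on the remaining dim one, and Eif2s2, a subunit of eIF2, at -0.25 on its brightest. Ppp1r15a, also on the list, differed by 0.05 (7.65 and 7.60). Atf4 and Asns, downstream of eIF2 phosphorylation, stand on none of the lists and were named after their values were seen. On their brightest probe sets Atf4 read 8.61 and 9.99 and its target Asns 8.24 and 10.07, both lower in the clone with the hairpin. The Asns difference was the lowest of all 7269 genes above the floor. Whether these differences have to do with PKR was not tested. The other probe sets of Atf4 differed by less, -0.59 and -0.15 against -1.37, and that of Asns by -1.81 against -1.82.

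Genes with an ISRE core differed in both directions. Of 380 measured genes with a core in a promoter window 204 were above the floor, 110 higher and 93 lower, with a median of 0.01. Past the 1.5-fold limit 2 were higher, or 0.98%, and 3 lower, or 1.47%. Over the 5929 genes above the floor with any window these shares were 0.59% and 1.52%. The 5 genes, named for passing the limit, were Ifitm3, Selenop (7.10 and 6.49), Tgm1 (6.94 and 7.55), B2m and Igf2 (7.71 and 8.97). B2m, the light chain of MHC class I and an interferon-inducible gene, read 7.87 and 8.76 on its brightest set and 7.91 and 8.50 on the other, differences of -0.89 and -0.60. Tap1, the peptide transporter of the same pathway, read 6.66 and 6.79. In bulk RNA, fewer cells of a type and less RNA per cell cannot be told apart.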

How the data were processed

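RNA abundance was measured on 2 Affymetrix mouse 430A arrays, 1 per clone. The deposited values are log2 expression values made with RMA, per the submitters' processing notes. The sources used here give neither the RMA version nor the probe set definitions. The log base was taken from RMA's usual output and the range of 5.65 to 12.86. No detection calls were used. Gene names came from the platform annotation: 20380 of 22626 had 1 gene, 691 several and 1555 none, and 20351 matched the RefSeq gene table by gene ID. A gene took its probe set with the highest mean. The 48 genes above the floor with equal values on both arrays count in neither direction. Differences, counts and medians were computed with Python 3.11.15 and pandas 2.3.3, and cyclic loess with limma 3.58.1 in R 4.3.3. The procedure was tested on simulated arrays with planted changes and random noise of each probe set. That noise does not stand for scatter between cultures or clones, so the test does not bear on the values reported here. Promoter windows are from RefSeq (GRCm38.p6), and the sources used here name no build for the array annotation.

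Members and gene lists were chosen with earlier results of these data known. Named genes are the members, Dab2, up to 4 genes above the floor with the largest absolute difference of each list, pathway genes needed for the account and the 3 brightest genes of each marker list. Alternatives were median centring, cyclic loess, the mean of all probe sets, removal of probe sets ending in _s_at, _x_at or _a_at, other floors and a 2-fold limit. The number of arrays limits the precision.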

Additional observations from a re-analysis of the deposited data

How the results depend on the processing

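Member values moved little under the settings tried, several of which could not move most of them. Under median centring, cyclic loess, the mean of all probe sets and removal of probe sets ending in _s_at, _x_at or _a_at, 31 of 31 values moved by less than 0.11, the SD of 1 probe set, and by at most 0.04. Ifitm3 ranged from 0.73 to 0.76, Ifitm2 from 0.34 to 0.39 and Bst2 from -0.5834 to -0.5753, short of 1.5-fold (0.585) in each of them. Irf7 had no probe set left in the last of these settings, which could move no other member. Averaging probe sets could move only Eif2ak2, and median centring shifts all genes by the same amount. For members other than Eif2ak2, cyclic loess alone could move values by differing amounts. Ifitm1 was at 0.0015 under cyclic loess. A 2-fold limit, by construction, left 0 members higher, and 2 genes higher and 13 lower over all genes. With the floor at the 75th percentile the median of the antiviral effectors was -0.38 instead of 0.06, because only 4 genes remained, Bst2, Gbp2, Shisa5 and Pml. With no floor it was 0.03 over 41 genes. The dim signal of Ifit1, Irf7 and Eif2ak2 limits what can be seen of them. No paired analysis was possible because each group holds 1 array.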

Other observations

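Ifitm1 and Ifitm3 are also known as genes of early germ cells, so markers of that lineage were read beside them. Of 8 measured germ cell markers 5 were above the floor, 2 higher and 3 lower in the shDAB2 clone, with a median of -0.14 and none past 1.5-fold. Over all genes above the floor 0.578% passed as higher and 1.62% as lower, so none among 5 says little about the group. Dppa3, which encodes the maternal factor STELLA, was 0.39 higher (8.18 and 7.79). Tfap2c, an early germ cell and trophoblast factor, differed by -0.47 on its brightest probe set (7.06 and 7.53) and by -0.22 and -0.24 on the others. Alpl, tissue-nonspecific alkaline phosphatase, differed by -0.14. Prdm1, the regulator of germ cell fate, named after its value was seen, differed by -0.31 (6.62 and 6.92). Ddx4 and Dazl, genes of later germ cells, were below the floor.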
